A study of Mus musculus with 4 samples.

Results

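The cells described here were human monocytes from mouse-borne breast tumors in which no transcript of S100A12 was counted. Cells were taken in if VCAN, FCN1 and CD300E together had at least 5 unique molecular identifiers (UMIs, each standing for 1 captured transcript) and S100A12 had 0. CD1C and CLEC9A also had to be at 0, C1QA, C1QB and C1QC together at 5 or less, and transcripts of mature dendritic cells (LAMP3), hypoxia (SLC2A1, HILPDA, ADM), metallothioneins (MT1G, MT1H), T cells (CD3D, CD3G, TRAC) and keratins (KRT18, KRT19) at or near 0. This left 997 of 16327 cells, or 6.11%. The members were chosen by measured counts of these genes, so that the levels of these genes, and the differences from the cells next to them, are a description and were not tested.

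The study asked how maraviroc, a small-molecule drug given by mouth, affects human immune cells inside a tumor. All 14 mice were of the MISTRG strain, which carries human genes for M-CSF, GM-CSF and IL-3, and all had been irradiated as newborns and engrafted with CD34+ stem cells from fetal liver. All of them bore tumors of MDA-MB-231, a human breast carcinoma cell line, in the mammary fat pad. Cells were labelled with a hashtag antibody for each mouse, and live human CD45+ cells were then sorted and profiled by droplet 3' RNA-seq in 2 reactions. The 7 mice of the untreated group had no drug, and the 7 mice of the maraviroc group drank water with 300 mg/l of maraviroc, begun on day 21 after tumor injection and kept up for 10 days. Tumors of both groups were removed on day 31. Reaction 1 held untreated mice 1 to 4 and maraviroc mice 1 to 3, and reaction 2 held untreated mice 5 to 7 and maraviroc mice 4 to 7. The mice of a group have no other label, and how many stem cell donors they came from was not given. Such a host has a mouse stroma and a grafted human immune system, and its human monocytes depend on the human growth factors of the strain.

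Monocytes leave the bone marrow as classical cells, which carry CD14 and CCR2 and are rich in the calcium-binding alarmins S100A8, S100A9 and S100A12. In blood some of them pass through an intermediate state with high HLA class II into nonclassical monocytes, which carry the Fc receptor FCGR3A (CD16) and the fractalkine receptor CX3CR1. In tissues and tumors, classical monocytes lose the alarmins and mature into macrophages or dendritic-like cells. The complement genes C1QA, C1QB and C1QC are typical of tissue macrophages, and CD1C of type 2 dendritic cells.

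The 2 reactions differed in depth. The median barcode of reaction 1, of 29120 deposited, had 2764 UMIs, and that of reaction 2, of 13582, had 10204.5. The limits on genes and mitochondrial counts were met by 27645 barcodes of reaction 1 and 10161 of reaction 2. Of these, 7361 and 8966 also met the limit on the share of the top hashtag and were kept. The hashtag limit thus removed most of these barcodes in reaction 1 and few in reaction 2. Whether the cells lost in this way differed from those kept, and what this did to the shares of kept cells, was not tested. Of the kept cells, 402 of reaction 1 and 595 of reaction 2 were S100A12-negative monocytes, with a median of 5238 and 10324 UMIs. A mouse gave 28 to 113 of these cells. Of the 997 members, 1 had a barcode that was also kept in the other reaction, and 32 such barcodes were kept in all. Since absence of a transcript depends on depth, shares of cells with a transcript are given for each reaction, and shares compared between treatments are given over both reactions and within each.

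The gate rested mostly on VCAN, the gene of versican, a large matrix proteoglycan of monocytes, which held 74.3% of the members' UMIs of the 3 gate genes. All 3 gate genes were detected in 589 members, 2 of them in 277, and 1 in 131, of which 121 had only VCAN. The median sum of the gate genes was 16 UMIs in reaction 1 and 28 in reaction 2, and 205 members had sums of 5 to 9. Just inside the gate, 53 members had a sum of 5, and just outside it 67 cells had a sum of 4. The limits cut through ranges that held cells on both sides. At the S100A12 limit, 318 cells with the same gate had 1 UMI and 155 had 2. At the C1Q limit, 27 members had 5 UMIs and 31 cells outside had 6. At the CD1C limit, 113 cells were left out with 1 UMI.

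The markers given for these cells were checked in the members and in T cells. FCN1 (ficolin-1, a lectin of the complement pathway) averaged 560 CPM with an SD of 128 over 14 mice, where CPM is the UMIs of a gene in the summed cells of a mouse, scaled to a total of 1e+06. In the T cells of the same mice, taken as cells with at least 3 UMIs of CD3D, CD3G and TRAC and under 5 of the gate genes, it was at 4.0 CPM. CD300E, an activating receptor of monocytes, was at 467 CPM ± 81.0 against 5.25 CPM in T cells. Both are genes of the gate that the T cells had to be low in, so these differences were set by the rule.

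Among the markers that the rule did not read, ADGRE3 (an adhesion G protein-coupled receptor of myeloid cells) differed most from T cells. It was detected in 18.2% of the members of reaction 1 and 24.2% of those of reaction 2, against 0.767% and 0.957% of T cells, whose median depths were 6466.5 and 7517 UMIs. The monocytes with S100A12, which otherwise met the rule, had it in 13.2% and 20.4% of cells, and over the 14 mice it was at 58.0 CPM in the members and 41.1 in those monocytes (log2 ratio of CPM + 1 of 0.60 ± 0.68, higher in 12 of 14 mice). CX3CR1 was detected in 17.2% and 22.4% of the members, against 3.00% and 2.76% of T cells. SETBP1, a nuclear protein that binds the oncoprotein SET, was not particular to these cells, since it was detected in 12.2% and 20.5% of the members and in 22.8% and 29.6% of T cells. In CPM, SETBP1 was at 49.4 ± 24.6 in the members and 67.7 in T cells. Each of the 3 markers that the rule did not read was detected in a minority of the members.

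The members carried transcripts of both classical and nonclassical monocytes. CD14, the coreceptor for lipopolysaccharide, was detected in 74.4% and 72.1% of them in the 2 reactions, and FCGR3A in 67.4% and 77.0%. In T cells, CD14 was detected in 30.8% and 18.6% and FCGR3A in 25.1% and 13.1%. CCR2, the receptor through which classical monocytes leave the marrow, was detected in 19.2% and 34.5% of the members and in 4.95% and 5.78% of T cells. TCF7L2, a transcription factor that is high in nonclassical monocytes, was at 517 CPM ± 146 against 16.1 in T cells. CDKN1C, a cell cycle inhibitor and a defining gene of nonclassical monocytes in blood, was near the floor at 15.5 CPM ± 14.6, and LYPD2 was at 0.

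Transcripts of other cell types were measured by lists of marker genes, and several of these lists held genes that monocytes also express. FCER1A and CD207 of type 2 dendritic cells had no UMI in any member, while CLEC10A of the same list was at 28.9 CPM ± 14.2 (SD, 14 mice). CXCR1, CEACAM8 and LTF of neutrophils also had none, while CSF3R, the receptor for G-CSF, was at 108 CPM ± 19.4. HBB, GP9 and ALAS2 of red cells and platelets had none, and PPBP, a platelet chemokine, was at 39.5 CPM against 38.8 in T cells. The list of plasmacytoid dendritic cells summed to 741 CPM ± 129 in untreated and 774 ± 140 in maraviroc mice, against 619 in T cells. Most of it was IL3RA, a chain of the IL-3 receptor, at 451 CPM, while the defining genes CLEC4C and LILRA4 were at 1.78 and 4.59. The carcinoma list summed to 3116 CPM ± 386 and 3034 ± 434, of which VIM (vimentin, an intermediate filament protein of most leukocytes) was 3048 on average. The T cell list summed to 249 CPM ± 73.2 and 310 ± 66.5 against 2547 in T cells, and its most abundant gene was CD4 at 145.

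Of the 7 NK cell genes, summed levels averaged 426 CPM ± 553 in untreated and 214 ± 125 in maraviroc mice, against 5293 in T cells, and the most abundant was GNLY (granulysin) at 215 CPM. Untreated mouse 2 stood apart with a sum of 1583. At least 5 UMIs of NKG7 and GNLY together were found in 34 members, and 82 members had a UMI of MKI67 or TOP2A, genes of dividing cells.

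SPP1 (osteopontin), a secreted protein of tumor macrophages, was abundant in the members and in T cells. It was detected in 88.1% and 79.7% of the members but also in 82.6% and 64.5% of T cells, which should not express it at this level. Its CPM in the members was 2992 and 1171 pooled over the cells of the 2 reactions. In the C1Q-high cells of the same mice it averaged 10929 CPM. With shares this close to those of T cells, SPP1 in the members is given as a value and not as expression of their own.

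The share of gated monocytes without S100A12 was lower among cells with more UMIs. In reaction 1, 61.3% of the gated monocytes with under 3000 UMIs had no S100A12 (exact binomial 95% interval 53.8% to 68.5%). Of the 23 cells with 20000 or more, 34.8% had none (16.4% to 57.3%). In reaction 2 the share went from 59.7% (46.4% to 71.9%) at 3000 to 5000 UMIs to 35.9% (24.3% to 48.9%) at 20000 or more. Reaction 2 had 14 gated cells under 3000 UMIs, 9 of them without S100A12, and this bin was left out because it held under 20 cells. In each of the other bins the intervals of the reactions overlapped. Within a reaction, the intervals of the shallowest bin shown and the deepest overlapped too, and they cover counting error only. Even in the deepest bin, 8 of 23 and 23 of 64 cells had no UMI of S100A12.

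**Figure D1:**
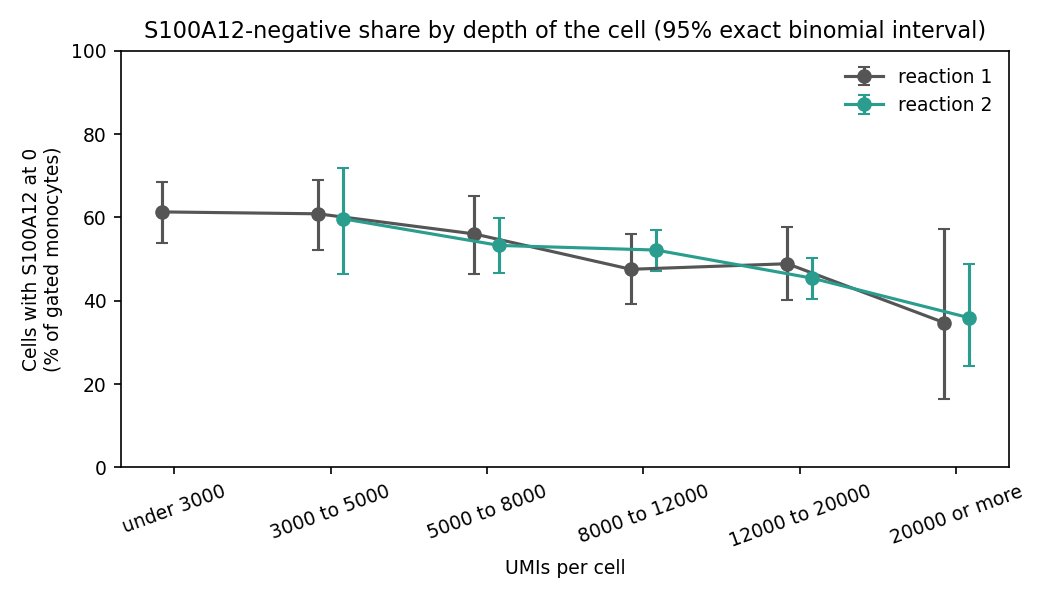
Share of gated monocytes with S100A12 at 0, in percent (y axis), by the UMIs of the cell (x axis), in reactions 1 and 2. Points are shares and bars are 95% exact binomial intervals. The share was 61.3% in the shallowest bin of reaction 1 and 34.8% in its deepest, and 59.7% and 35.9% in the shallowest bin shown and the deepest of reaction 2, whose 14 cells under 3000 UMIs are not plotted.

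Fewer UMIs per cell gave more cells without S100A12. When each gated cell was thinned to 2000 UMIs, 472 of 645 cells of reaction 1 (73.2%) and 895 of 1191 of reaction 2 (75.1%) had none, against 54.6% and 49.7% at full depth. Thinning left out 91 and 6 shallower cells. In T cells, which should lack it, S100A12 was seen in 0.907% (0.484% to 1.55%) and 0.804% (0.498% to 1.23%) of cells (exact binomial). Among gated monocytes it was seen in 45.4% and 50.3%.

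Within the gate, other genes varied in steps with the S100A12 count of the cell. In reaction 1, S100A8 was at 1948 CPM in cells with 0 UMIs of S100A12, then at 3479, 5847, 7739 and 14058 in cells with 1, 2, 3 to 5 and 6 or more. In reaction 2 the same order held, from 1547 through 3248, 4309 and 6725 to 12044. S100A9 went from 4293 to 21472 in reaction 1 and from 3738 to 19471 in reaction 2, and LYZ (lysozyme) from 1713 to 5347 and from 1727 to 4035. For S100A8 each step was higher than the one before it in both reactions.

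Other genes were lower in the cells with the most S100A12 than in those with none, in part with a broken order. HLA-DRA, a chain of the HLA-DR molecule that presents peptides to CD4 T cells, was at 3639 CPM in reaction 1 at 0 UMIs of S100A12, then at 3474, 2351, 2046 and 1319. In reaction 2 it went from 3499 to 1480. FCGR3A was at 503, 435, 391, 295 and 141 in reaction 1 and at 467, 483, 341, 365 and 214 in reaction 2. SPP1 was at 2992, 2352, 1252, 1781 and 484 in reaction 1, and in reaction 2 it was lower at each step, from 1171 to 242. SETBP1 was at 44.4, 22.2, 12.8, 17.3 and 11.9 in reaction 1, and in reaction 2 it was lower at each step, from 52.7 to 16.1. All levels are pooled over the cells of a reaction and have no replicate error. The groups also differed in depth, with a median of 5238 UMIs at 0 and 10203 at 6 or more in reaction 1, though only 10324 and 10702 in reaction 2.

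**Figure D2:**
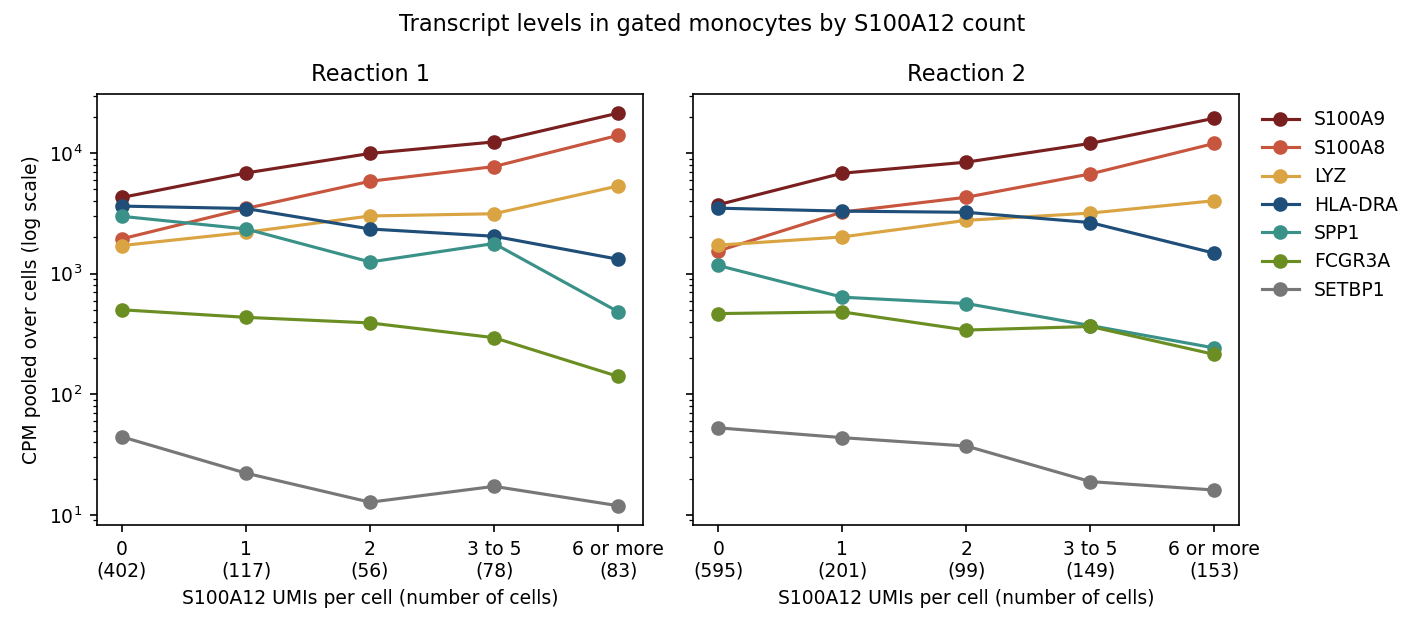
Levels of 7 genes (y axis, CPM pooled over cells, log scale) in gated monocytes by S100A12 UMIs per cell (x axis, with the number of cells), in reactions 1 and 2. S100A8, S100A9 and LYZ were higher with more S100A12, and HLA-DRA, SPP1, FCGR3A and SETBP1 were lower at 6 or more UMIs than at 0, with a broken order for SPP1 and SETBP1 in reaction 1 and FCGR3A in reaction 2, and with S100A8 at 1948 CPM at 0 UMIs and 14058 at 6 or more in reaction 1.

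Compared within each mouse with the 936 monocytes that met every other part of the rule and had S100A12, the members had less of the alarmins and more HLA class II. A gene was counted if its mean was at least 50 CPM on the higher side and if it was higher, or lower, in all 14 mice. Of 3828 genes at that level, 25 (0.653%) were higher in the members and 43 (1.12%) were lower, with S100A12, VCAN and FCN1 of the rule among the latter. No test was made, since both sides were split by a gene of the same cells. The median log2 ratio of all 3828 genes was 0.02.

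S100A8 was at 1792 CPM in the members and at 7241 in the S100A12-positive monocytes, a log2 ratio of CPM + 1 of -2.05 ± 0.37 (SD over 14 mice). Over the mice, S100A8 in the members ranged from 963 to 2897 CPM with a median of 1722. S100A9 stood at 4093 against 12254 CPM (-1.62 ± 0.31). S100A8 and S100A9 form calprotectin, the main calcium-binding protein complex of neutrophils and classical monocytes. RNASE2, a secreted ribonuclease, was at 27.1 against 88.8 CPM (-1.81 ± 0.79). RETN (resistin, a cysteine-rich secreted protein) was at 347 against 780 CPM (-1.27 ± 0.84), LYZ at 1803 against 3249 (-0.87 ± 0.37), and CLU (clusterin) at 46.3 against 118 (-1.31 ± 0.48). DYSF and TESC followed at -1.04 and -0.96, besides FCN1 of the gate. All of these were lower in 14 of 14 mice.

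Among the genes that were higher in the members, CD80, a costimulatory ligand for CD28 on T cells, had the largest ratio. It was at 121 against 59.6 CPM, a log2 ratio of 1.12 ± 0.55. Class II genes made up 4 of the first 12: HLA-DQB1 at 277 against 146 CPM (0.96 ± 0.31), HLA-DPA1 at 1136 against 706 (0.71 ± 0.24), HLA-DPB1 at 901 against 569 (0.69 ± 0.31) and HLA-DRB1 at 2871 against 1846 (0.66 ± 0.24). The rest were EPS8 (0.91), an actin regulator, the cholesterol exporter ABCG1 (0.87), FRMD4B (0.81), SPRED1 (0.75), an inhibitor of the RAS pathway, the chemokine receptor CXCR4 (0.69), superoxide dismutase SOD1 (0.68) and TXNIP (0.64), which binds thioredoxin.

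**Figure D3:**
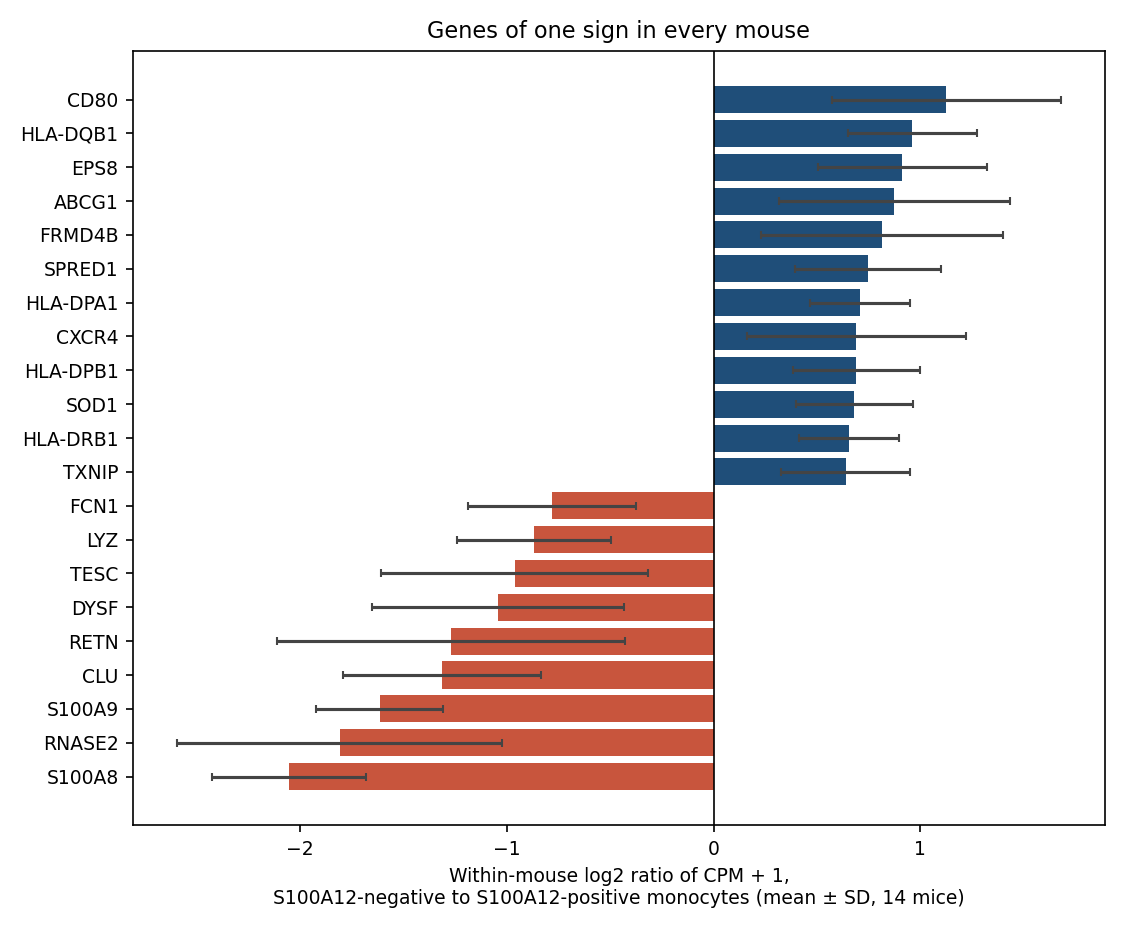
Within-mouse log2 ratio of CPM + 1 between S100A12-negative and S100A12-positive monocytes (x axis) for genes of the same sign in all 14 mice among those with the largest ratios (S100A12 itself is left out). Bars are means and lines are SDs over the mice; CD80 had the largest positive ratio, 1.12, and S100A8 the most negative, -2.05.

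By list, 8 of 11 genes of class II presentation were higher in all 14 mice and 0 were lower, with a median log2 ratio of 0.53. Without S100A12 of the rule, 5 of 10 alarmin and granule-like genes measured at that level were lower in all mice and 0 were higher, with a median of -0.64. Of 15 classical monocyte genes, also without S100A12, 6 were lower and 0 higher (median -0.41). The last list shares S100A8, S100A9, LYZ, ITGAM and others with the alarmin and adhesion lists. Of 11 nonclassical genes, 0 were higher or lower in all mice, and their median was 0.16. FCGR3A was at 478 against 332 CPM and higher in 11 of 14 mice. CX3CR1 was at 35.3 CPM on both sides and higher in 8 of 14. Lists of chemokines, interferon-stimulated genes and myeloid transcription factors had medians of -0.04, -0.09 and 0.08. The tumor macrophage list without its C1Q genes had a median of 0.44 over 9 genes, heat shock and chaperones one of 0.35 over 10, and neither had a gene of one sign in all mice. Lipid handling had a median of 0.27 over 13 genes, of which 1 was higher in all mice.

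The contrast was present among deep cells too. Of cells with at least 12000 UMIs, 74 and 211 were members in the 2 reactions and 84 and 267 were S100A12-positive. S100A8 was at 1662 against 6378 CPM in reaction 1 and at 1347 against 5244 in reaction 2. HLA-DRA was at 3931 against 2381 and at 3692 against 2931. CD80 was at 139 against 56.1 and at 138 against 88.8. SPP1, the transcript found in most T cells as well, was at 2608 against 1410 and at 1552 against 478. The levels are pooled over cells.

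Compared with the 287 cells that met the rule apart from CD1C, the members had less of CLEC10A and of class II genes. The 9 mice with at least 10 cells on both sides were used. Of 3940 genes, 270 (6.85%) were higher in the members in all 9 mice and 142 (3.6%) were lower. CLEC10A, a lectin of type 2 dendritic cells, was at 30.9 against 154 CPM, a log2 ratio of -2.38 ± 0.57. HLA-DQA1 was at 61.2 against 338 CPM (-2.44 ± 1.26), and HPGDS, a prostaglandin D synthase, at 11 against 66.2 (-2.65 ± 0.81). Of the 11 class II genes, 10 were lower in the members in all 9 mice, so that the members stood between the S100A12-positive monocytes and the CD1C-positive cells in class II. HLA-DRA, for example, averaged 2486 CPM in the first, 3566 in the members and 6583 in the last, the last over 9 mice only.

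On the other side, RETN (252 against 46.8 CPM, 2.79 ± 1.51), the water and glycerol channel AQP9 (196 against 66.4, 1.60 ± 0.50), the inhibitory receptor CD300LF (81.7 against 32.2, 1.58 ± 0.84) and ALOX5AP (68.6 against 27.3, 1.64 ± 1.82), which serves leukotriene synthesis, were higher than in the CD1C-positive cells in all 9 mice. S100A8 was also higher in all 9, with a log2 ratio of 1.38. The same held for SPP1 (1772 against 529 CPM, 2.44 ± 0.93) and the glycoprotein GPNMB (56.0 against 16.7, 2.04 ± 1.67). The CD1C-positive cells were deeper, with a median of 13923 UMIs against 8848.

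Compared with the 1060 cells that met the rule apart from the C1Q limit, the members had less of several macrophage genes. These C1Q-high cells were deeper, with a median of 12855.5 UMIs against 8848 in the members, and a deeper cell passes a fixed limit of 5 UMIs more easily. Of 4091 genes, 446 (10.9%) were higher in all 14 mice and 337 (8.24%) were lower. MMP12, macrophage elastase, was at 43.8 against 1018 CPM (-4.83 ± 1.36) and the chemokine CCL18 at 7.58 against 301 (-5.08 ± 1.75). SELENOP, a selenium carrier, was at 7.48 against 145 (-4.45 ± 1.29), the iron exporter SLC40A1 at 14.5 against 222 (-4.33 ± 1.64) and LYVE1, a hyaluronan receptor of resident macrophages, at 5.35 against 98.8 (-4.38 ± 2.01). Of 13 tumor macrophage genes other than C1QA, C1QB and C1QC of the rule, 9 were lower in all mice and 0 were higher (median -1.93).

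ADGRE3 was the gene with the largest positive ratio here, at 58.0 against 6.18 CPM (3.22 ± 1.27). The transforming growth factor signal transducer SMAD3 was at 147 against 18.4 CPM (2.97 ± 1.08) and ALDH1A2, which makes retinoic acid, at 200 against 36.9 (2.59 ± 0.95). The nuclear receptor PPARG was at 247 against 48.1 (2.34 ± 0.49). CD52, a surface glycopeptide of leukocytes, was at 936 against 204 (2.38 ± 0.76). The class II list had a median of -0.07 in this comparison, with 1 gene higher and 1 lower in all mice.

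Against all other 15330 kept cells, 731 of 4295 genes (17.0%) were higher in the members in all 14 mice and 739 (17.2%) were lower. The largest ratios again began with ADGRE3 (58.0 against 7.89 CPM, 2.77 ± 0.55), followed by GGT5 (2.39), ALDH1A2 (2.21), PID1 (2.17) and, after CD300E of the gate, AQP9 (2.04). OLR1, a receptor for oxidized LDL, was at 290 against 78.0 CPM (1.89 ± 0.36). LILRA1, LILRA2 and LILRA5, receptors of the leukocyte immunoglobulin-like family, had ratios of 2.02, 1.86 and 1.78. Of 13 Fc and LILR receptors, 8 were higher in all mice and 1, the activating Fc receptor FCGR2A, was lower in all (-1.01 ± 0.33). TCF7L2 was at 517 against 141 CPM (1.83 ± 0.41). Genes lower by the largest ratios were those of T cells, such as ICOS (-5.18 ± 1.15) and IL32 (-5.14 ± 2.04), along with the genes of the rule.

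Over the mice, HLA-DRA and CD74 varied little and several secreted proteins varied widely. HLA-DRA ranged from 2857 to 3976 CPM over 14 mice (median 3576) and CD74, the invariant chain, from 2012 to 2787 (median 2438). SPP1 ranged from 466.1 to 4013 (median 1343), CXCL10 from 4.05 to 598 (median 220), and CCL8 from 1.54 to 109 (median 26.9). The transcription factor ZEB2 was at 2248 CPM ± 355 and the myeloid regulator SPI1 at 414 ± 96.6. Among cytokines, CXCL8 was at 1139 ± 438 and IL1B at 959 ± 415.

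The first question for treatment was whether the members made up another share of the kept cells. In reaction 1 they were 7.07%, 5.84%, 7.19% and 6.10% of the kept cells in untreated mice 1 to 4, and 5.22%, 4.22% and 3.04% in maraviroc mice 1 to 3. In reaction 2 they were 4.38%, 6.57% and 8.06% in untreated mice 5 to 7, and 5.89%, 8.21%, 8.08% and 5.35% in maraviroc mice 4 to 7. In reaction 1 the maraviroc mice were below all untreated mice, and in reaction 2 the groups overlapped.

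Over both reactions the share was 6.46% ± 1.18 in 7 untreated and 5.71% ± 1.90 in 7 maraviroc mice, a difference of -0.745 percentage points (two-sided exact permutation test within reactions, p = 0.378). With each mouse left out in turn, the difference ran from -1.16 points without maraviroc mouse 5 to -0.299 without maraviroc mouse 3. In reaction 1 alone it was 6.55% ± 0.678 against 4.16% ± 1.09, a difference of -2.39 points (exact permutation p = 0.0286, the smallest that 35 regroupings can give). In reaction 2 alone it was 6.34% ± 1.86 against 6.88% ± 1.48, a difference of 0.541 points (exact permutation p = 0.6). The difference between the reactions was 2.93 points and did not pass a threshold of 0.05 (exact permutation p = 0.0718 over 1225 regroupings). With every kept cell thinned to 2000 UMIs before the rule, the difference over both reactions was 0.134 points. Thinning before the rule also changed which cells it took, since fewer UMIs make the gate harder to reach and the upper limits easier to meet. The gated monocytes went from 229 to 310 in maraviroc mouse 6 and from 107 to 84 in untreated mouse 1. These values are thus not the same cells at equal depth.

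The second question was whether more or fewer of the gated monocytes lacked S100A12. Of the gated monocytes of untreated mice, 42.3% to 63.5% did (median 56.1%), and of maraviroc mice 37.3% to 64.0% (median 49.3%). The means were 54.2% ± 7.72 and 50.1% ± 8.56 (difference -4.09 points, two-sided exact permutation p = 0.367, 7 against 7 mice). With each mouse left out, the difference ran from -6.39 points without maraviroc mouse 2 to -1.96 without maraviroc mouse 3. In reaction 1 alone the difference was -9.0 points (exact permutation p = 0.314) and in reaction 2 alone 2.06 points (exact permutation p = 0.657). After thinning to 2000 UMIs before the rule, which also changed the cells that were gated, the treatment difference over both reactions was -1.15 points. Between reactions, the share was 54.6% ± 9.92 in reaction 1 and 49.7% ± 5.54 in reaction 2 (difference -4.82 points, exact permutation p = 0.28). With each mouse left out, it ran from -7.69 points without maraviroc mouse 3 to -3.25 without maraviroc mouse 2, and after thinning before the rule the sign turned (3.33 points, exact permutation p = 0.194). Of the 9 comparisons of shares, which include the differences between reactions, none passed a Benjamini-Hochberg adjustment over them. The lowest adjusted exact permutation p was 0.257, that of the share of kept cells in reaction 1 alone.

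**Figure D4:**
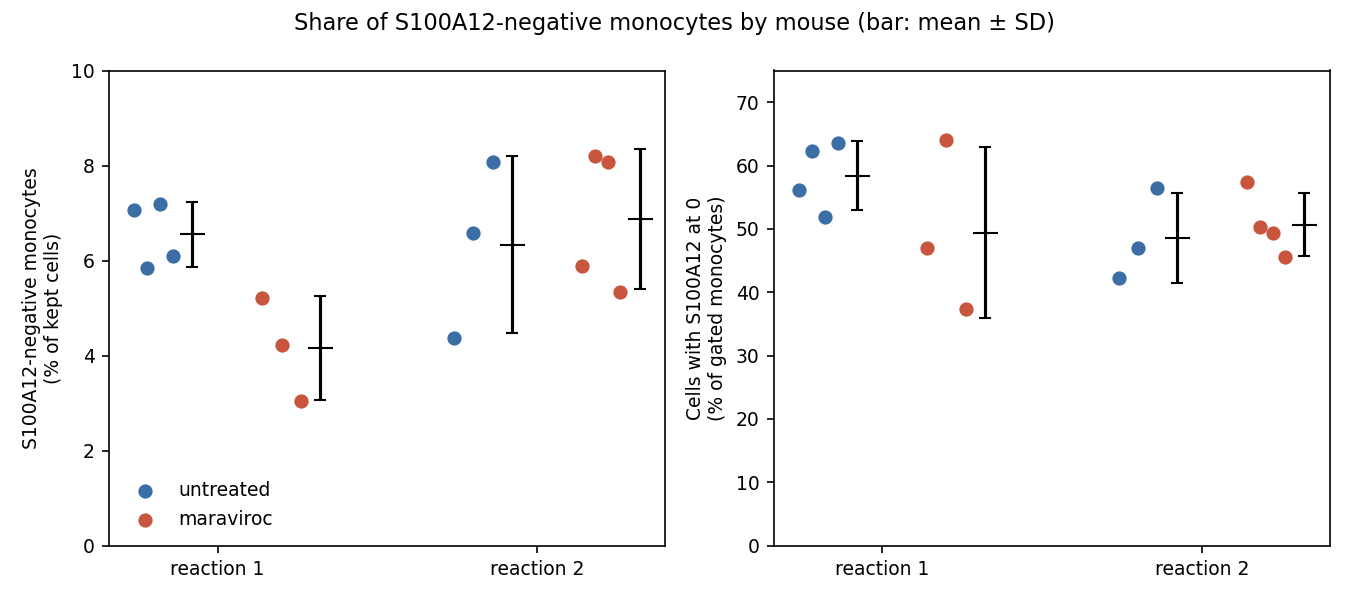
Share of S100A12-negative monocytes among the kept cells of each mouse (left, percent) and share of gated monocytes with S100A12 at 0 (right, percent), by reaction and treatment. Points are mice and bars are means ± SD; in reaction 1 the 3 maraviroc mice sit at 3.04% to 5.22% on the left, below the 4 untreated mice, and on the right the groups overlap in both reactions.

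For gene levels, UMIs were summed over the members of each mouse and compared by edgeR's quasi-likelihood test with the reaction as a covariate. The members of a mouse held 131377 to 1277714 UMIs in all. Between maraviroc and untreated mice, 0 of 7733 genes (0.0%) passed an adjusted p of 0.05, the lowest being 0.9999 (Benjamini-Hochberg). DESeq2 called 0 as well, with 260 at an unadjusted p under 0.05. With edgeR 328 genes (4.24%) had an unadjusted p under 0.05. The values below are therefore given without a call.

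The median log2 fold change of all genes was -0.00, and the medians of the 10 lists plotted lay between -0.14 and 0.22. Among the lists not plotted, the tumor macrophage list had 12 of 15 genes positive (median 0.26, with C1QA, C1QB and C1QC of the rule among them) and the cell cycle list 5 of 5 (median 0.61). Marker lists of other cell types with 1 to 4 genes tested had medians from -0.38 (NK cell) to 1.37 (erythroid or platelet). Of 19 chemokines and their receptors tested, 13 had positive and 6 negative fold changes (median 0.22). Of 23 interferon-stimulated genes, 19 were positive and 4 negative (median 0.12). Of 15 nonclassical monocyte genes, 12 were negative and 3 positive (median -0.14), and of 11 class II genes, 9 were negative (median -0.07). Classical monocyte genes had a median of 0.03, and inflammatory cytokines and their receptors had a median of -0.01. In none of these lists did a gene pass the adjusted threshold.

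**Figure D5:**
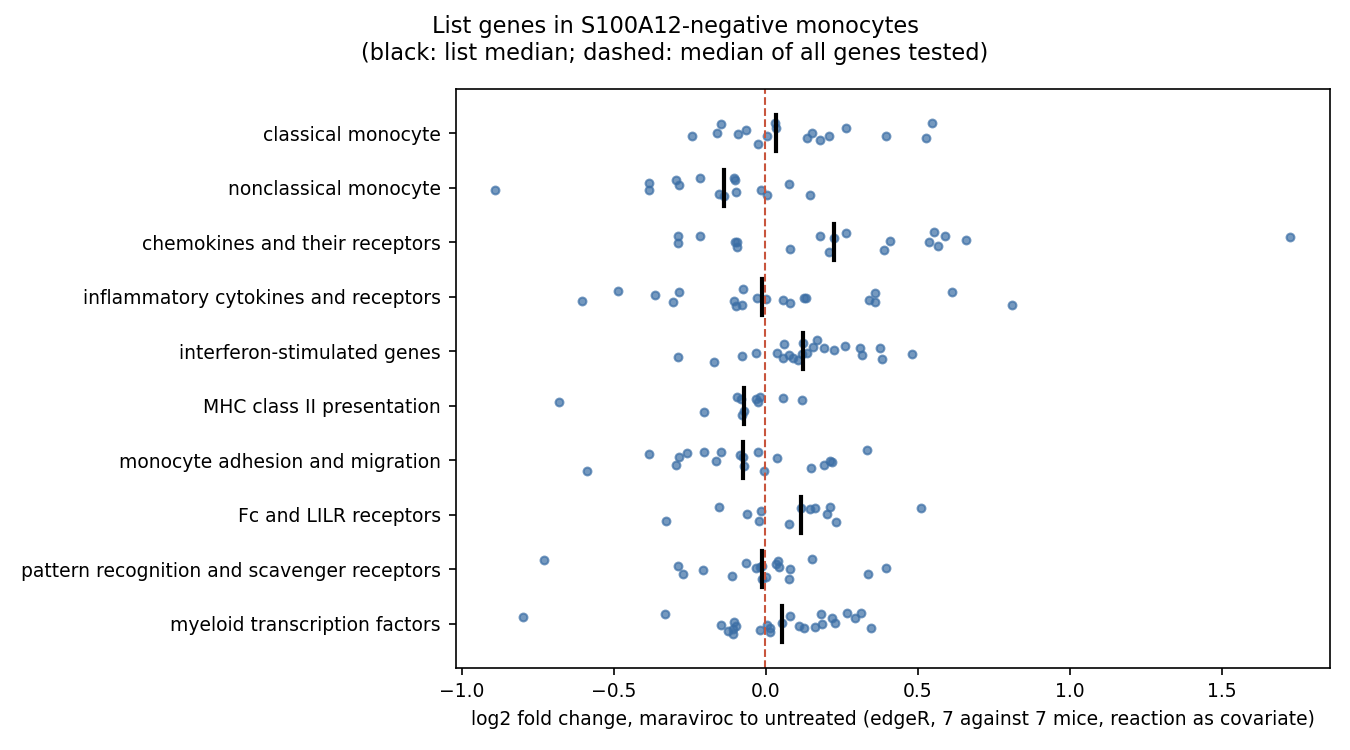
Log2 fold change between maraviroc and untreated mice (x axis) of the genes of 10 lists (y axis) in S100A12-negative monocytes, from edgeR with reaction as covariate. Points are genes, black lines are list medians, and the dashed line is the median of all genes; the medians run from -0.14 (nonclassical monocyte) to 0.22 (chemokines and their receptors).

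Among the list genes with the lowest unadjusted p, the Toll-like receptor TLR2, which senses bacterial lipoproteins, was at 239 to 344 CPM in untreated mice (median 287) and 319 to 505 in maraviroc mice (median 378). The groups overlapped in part, and the log2 fold change was 0.39 ± 0.11 (standard error). The monocyte chemoattractant CCL8 was at 1.54 to 80.5 CPM (median 8.19) and 15.7 to 109 (median 38.1), with a log2 fold change of 1.72 ± 0.51, and untreated mouse 1 at 80.5 was higher than most maraviroc mice. The inflammasome sensor NLRP3 was at 140 to 298 CPM (median 205) and 78.8 to 207 (median 136), with a log2 fold change of -0.61 ± 0.21. All 3 were among the 328 genes under an unadjusted p of 0.05, and each had an edgeR adjusted p = 0.9999.

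Of all genes tested, the 5 with the lowest unadjusted p among positive fold changes were TNS1, TESK2, ACVR2A, NARS2 and EXOSC7, with log2 fold changes of 0.81, 1.12, 0.68, 0.77 and 0.91. TNS1, a tensin that links integrins to actin, was at 21.6 to 62.8 CPM (median 42.9) in untreated and 45.7 to 94.2 (median 57.1) in maraviroc mice. Among negative fold changes they were EMC1-AS1, CD300LF, DUSP18, LRRC25 and HLCS, with -1.24, -0.73, -0.71, -0.58 and -0.77. CD300LF, which the members held above all other kept cells, was at 60.8 to 138 CPM (median 104) and 43.7 to 91.3 (median 55.9). In both genes the groups overlapped. All 10 failed the adjustment, each with an edgeR adjusted p = 0.9999.

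The treatment difference was then compared between the reactions. In the interaction test 0 of 7733 genes (0.0%) passed the adjustment, with 456 (5.9%) at an unadjusted p under 0.05 and the lowest adjusted p at 0.529 (edgeR). DESeq2 called 0, with 331 unadjusted. NFKBIA, the inhibitor of NF-kB, had the lowest unadjusted p among positive values. It was at 809, 667, 897 and 827 CPM in untreated mice 1 to 4 and at 614, 639 and 586 in maraviroc mice 1 to 3. In reaction 2 it was at 444, 430 and 435 CPM in untreated and at 554, 783, 570 and 576 in maraviroc mice. The groups did not overlap in either reaction and lay in opposite order, with an interaction of 0.93 ± 0.20 (edgeR adjusted p = 0.529).

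IL1B, the gene of the inflammatory cytokine interleukin-1 beta, was at 1286, 1831, 1346 and 993 CPM in untreated and 516, 749 and 518 in maraviroc mice of reaction 1. In reaction 2 it was at 946, 427 and 795 in untreated and 857, 1555, 636 and 968 in maraviroc mice, and the groups overlapped. Its log2 fold change was -1.20 in reaction 1 and 0.52 in reaction 2, and the interaction was 1.71 ± 0.41 (edgeR adjusted p = 0.641). KYNU, kynureninase of tryptophan breakdown, had an interaction of 1.10, and SPRED1 and TXNIP had values of -1.06 and -1.02, all failing the adjustment. NFKBIA, IL1B, KYNU, SPRED1 and TXNIP were picked for their low unadjusted p in the interaction test. Such a ranking favours genes whose groups lie in opposite order in the 2 reactions, so that order is not read as an effect. The interaction passed the adjustment in none of them, nor in the other genes picked in the same way. By list, inflammatory cytokines and their receptors had 16 of 20 interaction values positive (median 0.50), and heat shock and chaperones 10 of 10 negative (median -0.97), with the lowest edgeR adjusted p = 0.751 in the latter. The share of positive values and the median over all genes were not taken for the interaction. These counts therefore have no background and are not read as particular to the lists. The summed level of the heat shock list was 2103, 2759, 2098 and 1849 CPM in untreated mice 1 to 4 and 2967, 2659 and 3989 in maraviroc mice 1 to 3. In reaction 2 it was 2832, 2953 and 4015 in untreated and 4478, 1948, 2182 and 2161 in maraviroc mice. Its part in the other interaction values was not tested.

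Between the reactions, which held different mice, 111 of 7733 genes passed the adjusted threshold, 27 of them (0.349%) higher in reaction 2 and 84 (1.09%) lower. Genes of the ribosome were the main group among those that were lower. Of 77 RPL and RPS genes tested, 36 were lower by the test and 76 had negative values, with a median log2 fold change of -0.37. They took 5.60% to 6.78% of the members' UMIs in the mice of reaction 1 (6.25% ± 0.468) and 4.65% to 5.31% in those of reaction 2 (4.95% ± 0.267), with no overlap. RPL41 was at 2226 CPM ± 109 and 1716 ± 94.3. Their median was negative under each alternative run, from -0.49 with thinning to -0.30 with the top hashtag at 80% or more. With all genes of at least 1 count it was -0.31, where the median of all genes was 0.10.

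Other genes that were lower in reaction 2 were the glycolytic enzyme GAPDH (1904 CPM ± 287 in reaction 1, 1340 ± 118 in reaction 2, log2 fold change -0.56, edgeR adjusted p = 0.0197) and the lectin LGALS1 (2157 ± 233 and 1598 ± 119, -0.47). The T cell and NK cell genes CCL5 and NKG7, the fatty acid-binding protein FABP5, the proliferation gene MKI67 and the ferritin chain FTH1 were lower by the test as well. C1QA, C1QB and C1QC are among the 84, but the rule caps their UMIs per cell and the cells of reaction 2 were deeper, so their difference is not read. CCL5 was at 95.2 CPM in reaction 1 and 24.5 in reaction 2, and in T cells at 1618. The NK list summed to 491 CPM ± 520 in reaction 1 and 149 ± 95.5 in reaction 2. Untreated mouse 2, of reaction 1, had 1583. Of 15 tumor macrophage genes, C1QA, C1QB and C1QC of the rule among them, 14 were lower in reaction 2 (median -0.89). So were 5 of 5 cell cycle genes (median -1.31) and 12 of 15 of lipid handling (median -0.53). Heat shock and chaperones had 9 of 10 higher (median 0.14). The median of all genes between the reactions was 0.005. Myeloid transcripts counted in T cells differed between the reactions too. Pooled over T cells, SPP1, the most abundant gene of the macrophage and lipid lists, was at 2093 CPM in reaction 1 and 790 in reaction 2. S100A9 was at 228 and 101 and CD14 at 190 and 93.8, while S100A12 was at 1.15 and 1.13. The list differences are therefore not read as those of the members alone. The part of such transcripts, and of these lists, in the differences was not tested.

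Among the genes that were higher in reaction 2, MT-ATP8, a subunit of the mitochondrial ATP synthase, was at 221 to 326 CPM in reaction 1 and 372 to 439 in reaction 2 (log2 fold change 0.67 ± 0.10, edgeR adjusted p = 0.0197). BACH1, a repressor of haem oxygenase and other antioxidant genes, was at 503 to 836 and 814 to 1041 CPM (0.60 ± 0.11). FYN (0.77), a kinase of the SRC family, and SREBF2 (0.67), which drives cholesterol synthesis, followed, with VMP1 (0.51), an autophagy gene. Treatment was a term of the fit. With each member thinned to 2000 UMIs, 145 of 3239 genes passed (37 higher, 108 lower in reaction 2, edgeR). Thinning matched the UMIs per cell only, while the number of members per mouse still differed and fewer genes were tested. The part of depth in the differences was not tested. The reactions and their mice cannot be told apart.

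The number of called genes was sensitive to single mice. It was 0 without untreated mouse 5, 3 without untreated mouse 7, 20 without maraviroc mouse 1, 34 without maraviroc mouse 3, 35 without maraviroc mouse 6, and 51, 56 and 60 without untreated mouse 3 and maraviroc mice 5 and 4. The count was 1 with the top hashtag at 80% or more and 1 with a gate sum of 10 or more. DESeq2 called 280. The median of the ribosomal genes was negative whichever mouse was left out.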

How the data were processed

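Gene and hashtag counts of the human CD45+ cells of 14 tumors were analysed. The authors counted UMIs for genes of GRCh38 and for hashtags with Cell Ranger 9.0.1 and deposited these counts without normalization, and the submitters' processing notes also name Seurat 5.1.0. Treatments were taken from the hashtag names that the feature lists hold, because the labels give reactions only. The sorted cells are human although the organism label is mouse.

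Barcodes with 601 to 6000 genes, under 12.5% of counts from MT- genes and at least 60% of hashtag UMIs from the top hashtag were kept, and each was assigned to the mouse of that hashtag. This threshold stood in for the HTODemux step of the study, and no doublet caller was run beyond it. Of the 997 members, 671 had at least 80% of hashtag UMIs from the top hashtag, with a median of 86.0% over all members. The other members had more hashtag UMIs from other mice of their reaction, which held both treatments. Each member had at least 16 hashtag UMIs. The kept cells had a median of 5785 UMIs in reaction 1 and 10663.5 in reaction 2. Members were then taken by the rule given in the report.

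The mouse was the replicate. Counts were summed over the members of each mouse and tested with edgeR 4.0.16 in R 4.3.3 (TMM, filterByExpr, quasi-likelihood test, terms for reaction and treatment, Benjamini-Hochberg adjustment over 7733 genes). The standard error of a log2 fold change was taken from its F statistic. DESeq2 1.42.0 was an alternative. Tested on simulated data of the treatment comparison with 7733 genes, edgeR found 79 of 100 genes with a log2 change of 1 and 99 of 100 with a log2 change of 2, with 8 false calls. The counts were drawn from the trended dispersion around means fitted by reaction. They held no scatter of single genes around the trend, no outlying mice and no treatment effect that differed between reactions. The numbers found are therefore not the power in the real data. Shares were compared by exact permutation in scipy 1.17.1. Ratios between groups of cells used CPM + 1 within each mouse and were not tested, and with 3' UMIs levels were not scaled by gene length. The named genes were the 5 lowest p per direction, or up to 10 past the adjusted threshold, the 12 largest ratios per direction (20 against all other cells) and the leading members of the lists. The members, lists and tests were chosen with earlier results of these data known. No sequences are printed, since the reference used here was of mouse. A few genes that the rule for named genes would include are not reported here.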

Additional observations from a re-analysis of the deposited data

Results flagged for a closer look

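Of 56 groups of 7 mice examined, 5 held a mouse whose gap to its nearest neighbour was over 0.568 of the group's range, and chance gives about 1 in 20 such groups. VCAN, a gene of the gate by which the cells were chosen, was at 4273 CPM in untreated mouse 4, against 2101 to 2899 in the other untreated mice. NARS2 was at 34.8 CPM in untreated mouse 6, against 17.8 to 24.7. HLCS was at 7.61 CPM in maraviroc mouse 3, against 19.0 to 25.9 in the other maraviroc mice. NFKBIA was at 783 CPM in maraviroc mouse 5, against 554 to 639, and ACSM3 was at 261 CPM in maraviroc mouse 1, against 10.5 to 83.7. Maraviroc mouse 3 had the fewest members, 28. The causes were not tested.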

How the results depend on the processing

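Shares. The treatment difference in the share of kept cells was -2.39 points in reaction 1 alone, 0.541 in reaction 2 alone and 0.134 after thinning to 2000 UMIs before the rule. That in the share of gated monocytes without S100A12 was 2.06 points in reaction 2 alone and -1.15 after thinning before the rule. The reaction difference in the latter, -4.82 points, was 0.0343 with a gate sum of at least 10, 3.33 after thinning before the rule and 2.19 with S100A12 read after thinning, an alternative chosen after seeing the data. Thinning before the rule changed the gated cells as well as their depth. Gene tests. Treatment called 41 genes with all genes of at least 1 count kept, of which 29 were tested with the filter and 0 called in both, and 0 under every other alternative run. The interaction called 63 without the filter and 0 to 2 with each mouse left out, 2 without maraviroc mouse 2. The reaction count of 111 was 145 of 3239 genes after thinning to 2000 UMIs, 134 above 1000 genes per cell, 280 by DESeq2, 270 without the filter (59 shared), 34 with at least 30 member cells per mouse, 1 with the top hashtag at 80%, 33 without UMIs of CD3D, CD3G, TRAC, KRT18 and KRT19, 1 with a gate sum of at least 10, and 0 to 139 with each mouse left out. Neighbours. Against S100A12-positive monocytes, the 68 genes of the same sign in every mouse were 37 after thinning, 223 in reaction 1 alone and 493 in reaction 2 alone. Against CD1C-positive cells, 412 were 172 after thinning and 2549 in reaction 1 alone. Against C1Q-high cells, 783 were 389 after thinning and 1725 in reaction 2 alone. Against all other cells, 1470 were 914 after thinning and 2251 in reaction 2 alone. Fewer mice make the same sign in all of them easier, and thinning leaves fewer UMIs. No paired analysis was possible because the mice of the 2 treatments share no replicate pairing in the labels. Shallow cells limit the rule, since a monocyte with few UMIs can lack S100A12 by sampling.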
